A study of Mus musculus with 20 samples.

Results

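The genes described here are 9 genes of central myelin and of the oligodendrocytes that make it: Mbp, Mog, Mag, Cnp, Mobp, Aspa, Opalin, Myrf and Ugt8a. They were taken by symbol from 22180 measured genes, by a list drawn up with earlier results of these data known, and each was matched by 1 probe set that carries that symbol alone. RNA from spinal cord was hybridised to Affymetrix arrays in 4 groups of 5 arrays, from mice aged 6 to 10 weeks of the C57BL/6J strain. The groups were Cx30GRko mice given dexamethasone (Dex, 4 mg/kg), Cx30GRko mice given saline, control mice given Dex and control mice given saline, each by intraperitoneal injection with tissue taken 4 h later. Dex is a synthetic agonist of the glucocorticoid receptor. In Cx30GRko mice Cre recombinase deletes the receptor gene Nr3c1 where connexin 30 is made, which in the central nervous system means mainly astrocytes. The Cre allele, the alleles that the controls carry and any pooling of animals are not given in the sources used here. Arrays with Tg in the title were taken as Cx30GRko, and those with wt as controls.

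Myelin is the stacked membrane that oligodendrocytes wrap around axons in the brain and spinal cord. It consists of a small set of abundant proteins and of lipids rich in galactosylceramide and cholesterol, and its genes are switched on together late in oligodendrocyte maturation by transcription factors that include Sox10 and Myrf. Oligodendrocytes carry glucocorticoid receptors of their own, and glucocorticoids are known to affect their maturation and some of their enzymes. Because whole tissue was measured, fewer oligodendrocytes and less RNA per oligodendrocyte cannot be told apart in any value below.

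All values are log2 signal as deposited, so that a difference of 1 is a factor of 2, and levels are compared between arrays for 1 gene at a time. The values had been centred within 2 sets of arrays, the 12 arrays of replicates 1 to 3 and the 8 arrays of replicates 4 and 5, each of which holds every group, and results within the sets stand beside those over all 20 arrays. Arrays 4 and 5 of the Cx30GRko Dex group stood apart. Their standard deviations across probe sets were 1.95 and 1.81, against 1.66 to 1.71 in the other 18 arrays, and Dex differences of the 9 genes in Cx30GRko mice are also given without them. The centring had included these 2 arrays, and without them the Cx30GRko Dex group holds replicates 1 to 3 only. Unless a block is named, values without them come from a fit with no term for the array set. Such values may carry the centring, whose part was not tested. The residual standard deviation of the median gene was 0.37 in replicates 4 and 5 and 0.21 in replicates 1 to 3. Nr3c1, the targeted gene, averaged 6.19 ± 0.21 in Cx30GRko saline arrays and 6.21 ± 0.50 in control saline arrays (SD, n = 5 each), a difference of -0.02 ± 0.26 (SE; limma, adjusted p = 0.995). Within replicates 1 to 3 the difference was -0.25 ± 0.13 (SE; limma, adjusted p = 0.888). Under Dex Nr3c1 averaged 6.59 ± 0.70 in Cx30GRko arrays, against 6.22 ± 0.08 in control arrays, higher in the arrays labelled as knockout by 0.37 ± 0.26 (adjusted p = 0.6). The highest of the 20 values, 7.79, was in Cx30GRko Dex 4, and without Cx30GRko Dex 4 and 5 the difference was -0.043 ± 0.21 (adjusted p = 1). Whether its probes lie in the deleted part is not given in the sources used here.

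Opalin and Aspa had the largest differences after Dex among the 9 genes in control mice, and their promoters are printed for that reason. RefSeq promoters (250 bases before to 50 bases after the start site, build GRCm38.p6) were found for 7 of the 9 genes. The promoter of Opalin lies at chr19:41077064-41077363 and that of Aspa at chr11:73324588-73324887, both on the minus strand, and each is written 5′ to 3′ along its gene. Capitals mark matches to motifs searched on both strands: ACAAAG, the core bound by SOX factors; CAGCTG, an E-box of the kind bound by the OLIG factors; and CTGGNAC, a core bound by MYRF, which can appear as its reverse complement. No matches overlap.
Opalin promoter: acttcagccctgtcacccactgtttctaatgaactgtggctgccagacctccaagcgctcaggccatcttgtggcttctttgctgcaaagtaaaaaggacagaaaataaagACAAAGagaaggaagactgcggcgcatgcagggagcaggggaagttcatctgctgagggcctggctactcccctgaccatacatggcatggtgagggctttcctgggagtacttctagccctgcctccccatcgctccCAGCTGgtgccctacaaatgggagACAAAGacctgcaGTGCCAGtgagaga
Aspa promoter: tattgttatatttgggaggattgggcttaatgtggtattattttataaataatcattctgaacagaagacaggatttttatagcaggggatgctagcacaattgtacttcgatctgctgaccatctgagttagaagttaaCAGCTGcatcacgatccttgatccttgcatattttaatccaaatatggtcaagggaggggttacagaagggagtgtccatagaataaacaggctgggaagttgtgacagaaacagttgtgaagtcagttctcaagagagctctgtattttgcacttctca
The Opalin promoter held the SOX core with its first base at positions -139 and 24 from the start site, the E-box at -1 and the MYRF core, as its reverse complement, at 37. The Aspa promoter held the E-box at -110 and no match to the others. Of all 32851 mouse promoters of the same length, 18.7% held the SOX core, 16.3% the E-box and 19.3% the MYRF core. AGAACA, the half-site of the glucocorticoid receptor, was in 19.0% of them and in none of the 9 promoters found for the 7 genes. The full palindrome of that half-site, with a spacer of any 3 bases, was in 3 promoters of the 32851 and in none of these 9. A match or its lack describes these letters in this window only.

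Over all 20 arrays none of the 9 genes passed an adjusted p of 0.05 in any of 6 comparisons (limma, Benjamini-Hochberg adjustment over 22180 genes). The share of all genes called was 0.0135% for Dex against saline in control mice, 0.018% for Dex against saline in Cx30GRko mice and 0.149% for the mean of these Dex effects. No gene was called for the interaction, which is the Dex effect in Cx30GRko mice minus that in control mice, or for Cx30GRko against control under saline or under Dex. At an unadjusted p under 0.05, Opalin alone of the 9 passed for Dex in control mice, for the mean Dex effect and for the interaction, while none passed for Dex in Cx30GRko mice or for genotype under saline. The shares of all genes that pass at that level were 5.16% for Dex in control mice, 9.73% for Dex in Cx30GRko mice, 8.64% for the mean Dex effect, 5.65% for the interaction, 5.25% for genotype under saline and 11.2% for genotype under Dex. These comparisons share arrays, so their values for a gene are given side by side and are not independent.

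**Figure D1:**
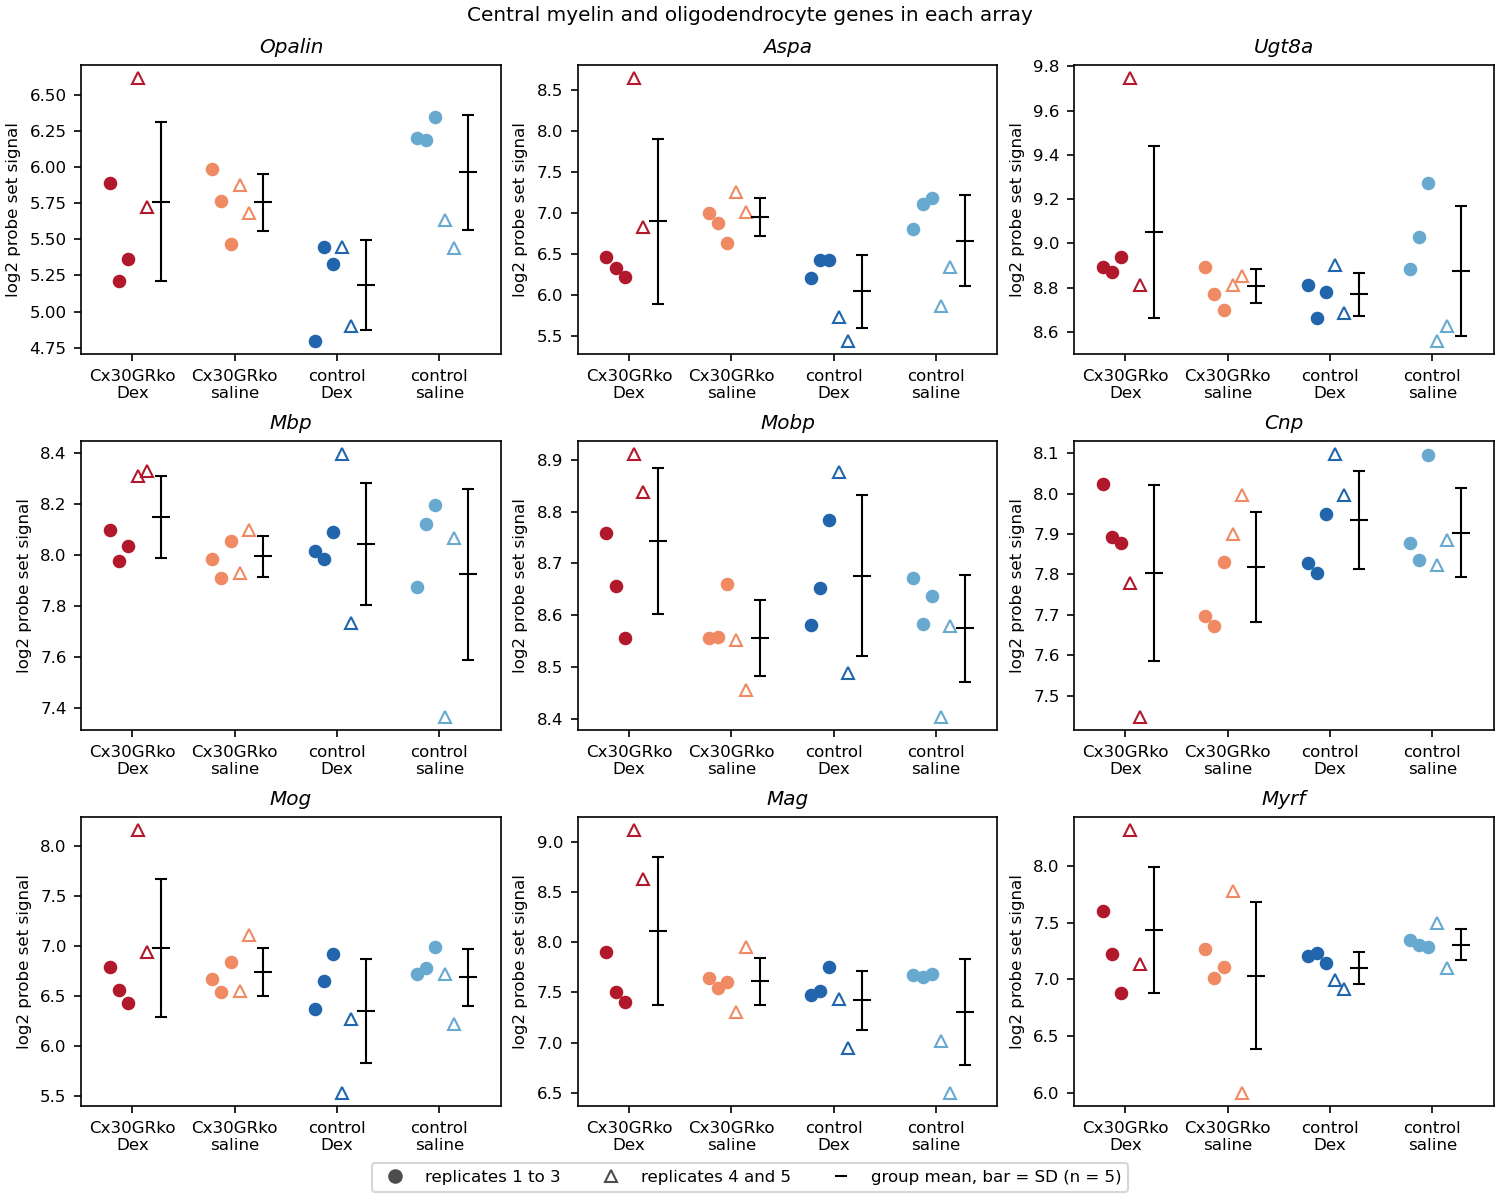
Log2 signal of the 9 genes in each of the 20 arrays, by group (Cx30GRko Dex, Cx30GRko saline, control Dex, control saline), with filled circles for replicates 1 to 3, open triangles for replicates 4 and 5, and bars for the mean ± SD of 5 arrays. Array 4 of the Cx30GRko Dex group lies highest of all 20 for Mobp (8.91), Mog (8.16), Mag (9.12), Aspa (8.64), Opalin (6.61), Myrf (8.32) and Ugt8a (9.75).

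The basic proteins of compact myelin were called in no comparison, and over all 20 arrays their groups overlapped. Mbp, myelin basic protein, which holds the inner faces of the membrane together, ranged from 7.98 to 8.33 in Cx30GRko Dex arrays, 7.91 to 8.10 in Cx30GRko saline arrays, 7.73 to 8.40 in control Dex arrays and 7.37 to 8.20 in control saline arrays. The groups overlap in every pairing of these 4, with the lowest value in control saline 4. The Dex difference of Mbp was 0.15 ± 0.16 in Cx30GRko mice and 0.12 ± 0.16 in control mice (SE), with 95% intervals of -0.17 to 0.48 and -0.20 to 0.44. That in Cx30GRko mice was 0.041 ± 0.18 without Cx30GRko Dex 4 and 5. Mobp, myelin-associated oligodendrocyte basic protein, ranged from 8.56 to 8.91 in Cx30GRko Dex arrays, 8.46 to 8.66 in Cx30GRko saline arrays, 8.49 to 8.88 in control Dex arrays and 8.40 to 8.67 in control saline arrays. It had the smallest spread of the 9 genes in replicates 1 to 3, a residual standard deviation of 0.08. Its mean Dex difference over both genotypes was 0.14 ± 0.08 (SE) over all arrays and 0.05 ± 0.07 in replicates 1 to 3, where the 95% interval ran from -0.11 to 0.21. Mbp and Mobp lay higher without overlap in Cx30GRko mice given Dex in replicates 4 and 5, as did 25.2% of all genes, with differences of 0.30 ± 0.35 (SE; limma, adjusted p = 0.792) for Mbp and 0.37 ± 0.27 (adjusted p = 0.631) for Mobp. The Dex difference of Mobp in Cx30GRko mice was 0.10 ± 0.13 without Cx30GRko Dex 4 and 5.

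Cnp, the enzyme 2′,3′-cyclic nucleotide 3′-phosphodiesterase of the cytoplasm-filled channels of myelin, averaged 7.80 ± 0.22 in Cx30GRko Dex arrays, 7.82 ± 0.14 in Cx30GRko saline arrays, 7.94 ± 0.12 in control Dex arrays and 7.90 ± 0.11 in control saline arrays (SD, n = 5 each). These means lie closer together than the arrays of any 1 group. Within replicates 1 to 3 the Cx30GRko Dex arrays had 8.02, 7.89 and 7.88, all above the Cx30GRko saline arrays at 7.70, 7.67 and 7.83, as the Dex groups of 5.79% of all genes were. The difference was 0.20 ± 0.11 (SE; limma, adjusted p = 0.862), and in replicates 4 and 5 it ran the other way without overlap, as 17.3% of all genes did, at -0.33 ± 0.26 (adjusted p = 0.663). Over all arrays it was -0.015 ± 0.13, and without Cx30GRko Dex 4 and 5 it was 0.11 ± 0.13.

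Mag, the myelin-associated glycoprotein on the innermost wrap facing the axon, had 7.90, 7.50, 7.41, 9.12 and 8.63 in the Cx30GRko Dex arrays and 7.64, 7.55, 7.61, 7.30 and 7.96 in the Cx30GRko saline arrays. In control mice it had 7.47, 7.51, 7.75, 7.43 and 6.94 under Dex, against 7.67, 7.65, 7.68, 7.01 and 6.50 under saline. Cx30GRko Dex 4 and 5 were the highest of the 20 arrays, and the other 18 lay between 6.50 and 7.96. The Dex difference of Mag in Cx30GRko mice was 0.50 ± 0.28 over all arrays (SE; limma, adjusted p = 0.551), -0.0064 ± 0.25 without those 2 arrays (adjusted p = 1) and 0.0055 ± 0.14 in replicates 1 to 3.

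Mog, the myelin oligodendrocyte glycoprotein on the outer surface of the sheath, had 6.79, 6.56, 6.43, 8.16 and 6.94 in the Cx30GRko Dex arrays and 6.67, 6.54, 6.84, 6.55 and 7.11 in the Cx30GRko saline arrays. In control mice it had 6.37, 6.66, 6.92, 5.53 and 6.28 under Dex, against 6.72, 6.79, 6.99, 6.72 and 6.22 under saline. The highest and the lowest of the 20 values, 8.16 in Cx30GRko Dex 4 and 5.53 in control Dex 4, both belong to replicate 4. The interaction of Mog was 0.57 ± 0.39 over all arrays (SE; limma, adjusted p = 0.858), and in replicates 1 to 3 it was 0.093 ± 0.22 (adjusted p = 0.974). Without Cx30GRko Dex 4 and 5 the interaction was 0.19 ± 0.32 (adjusted p = 1). The Dex difference of Mog in Cx30GRko mice was then -0.15 ± 0.24, against 0.24 ± 0.27 over all arrays.

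Opalin, an oligodendrocyte membrane glycoprotein found in myelin's paranodal loops, was lower in Dex than in saline arrays of control mice. It had 5.89, 5.21, 5.36, 6.61 and 5.73 in the Cx30GRko Dex arrays and 5.98, 5.77, 5.47, 5.87 and 5.68 in the Cx30GRko saline arrays. In control mice it had 4.80, 5.45, 5.33, 5.45 and 4.90 under Dex, against 6.20, 6.19, 6.35, 5.64 and 5.44 under saline. All 5 control Dex arrays lay below the control saline mean of their own set, by 0.091 to 1.45, and the groups overlapped over all arrays through control saline 5. In Cx30GRko mice 3 of 5 Dex arrays lay below their saline mean. The Dex difference in control mice was -0.78 ± 0.23 (SE), a level 0.583 times that under saline, with a 95% interval of -1.26 to -0.30 (limma, unadjusted p = 0.00281, adjusted p = 0.61). In Cx30GRko mice it was 0.0053 ± 0.23, with an interval of -0.47 to 0.48 (adjusted p = 0.996), and without Cx30GRko Dex 4 and 5 it was -0.27 ± 0.23 (adjusted p = 1).

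The difference between these Dex effects on Opalin, the interaction, was 0.78 ± 0.33 (SE; limma, adjusted p = 0.846) over all arrays. It was 0.51 ± 0.30 (adjusted p = 1) without Cx30GRko Dex 4 and 5 and 0.80 ± 0.30 (adjusted p = 0.916) in replicates 1 to 3, and it passed the adjusted threshold in none of these. The 3 control Dex arrays of Opalin in replicates 1 to 3 lay below the 3 control saline arrays, as did 5.72% of all genes, a difference of -1.05 ± 0.21 (SE; adjusted p = 0.104). The Cx30GRko difference there was -0.25 ± 0.21 (adjusted p = 0.925). Among the fits run, Opalin passed the threshold only in the one that weights arrays by their quality. There it fell by 0.93 ± 0.18 (adjusted p = 0.021) in control mice given Dex and by 0.60 ± 0.13 (adjusted p = 0.0277) for the mean Dex effect, in comparisons in which 0.261% and 0.582% of all genes were called.

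Aspa encodes aspartoacylase, which cleaves N-acetylaspartate in oligodendrocytes and so supplies acetate for myelin lipids. It had 6.46, 6.32, 6.21, 8.64 and 6.83 in the Cx30GRko Dex arrays and 6.99, 6.87, 6.62, 7.25 and 7.01 in the Cx30GRko saline arrays. In control mice it had 6.20, 6.42, 6.43, 5.72 and 5.43 under Dex, against 6.80, 7.11, 7.18, 5.86 and 6.33 under saline. All 5 control Dex arrays and 4 of 5 Cx30GRko Dex arrays lay below the saline mean of their own set. The exception, Cx30GRko Dex 4, lay 1.51 above it.

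Aspa fell after Dex in the mean over both genotypes in replicates 1 to 3, by 0.59 ± 0.10 (SE), a level 0.665 times that under saline (limma, adjusted p = 0.0234). It was the only one of the 9 genes called there, where 0.455% of all genes were. The shares called in replicates 1 to 3 were 0.0316% for Dex in Cx30GRko mice and 0.171% for Dex in control mice, and no gene was called for the interaction or for genotype under either treatment. Its 3 Dex arrays did not overlap its 3 saline arrays in either genotype, and Aspa was 1 of 96 genes, 0.433% of all, that lay lower in this way in both. The difference was -0.50 ± 0.14 (adjusted p = 0.593) in Cx30GRko mice and -0.68 ± 0.14 (adjusted p = 0.123) in control mice, neither called alone, with an interaction of 0.19 ± 0.20 (adjusted p = 0.932). The call rested on few arrays: when 1 of the 12 arrays was left out in turn, the fitted difference stayed between -0.65 and -0.55, the adjusted p ran from 0.0224 to 0.0778, and Aspa was called in 4 of 12 fits. Over all 20 arrays the mean Dex difference was -0.34 ± 0.25 (adjusted p = 0.702), and without Cx30GRko Dex 4 and 5 it was -0.62 ± 0.18 (adjusted p = 0.45). The difference in Cx30GRko mice was -0.056 ± 0.35 over all arrays and -0.62 ± 0.27 without those 2 arrays (adjusted p = 1). In replicates 4 and 5 the difference was 0.60 ± 0.55 (adjusted p = 0.722) in Cx30GRko mice and -0.52 ± 0.55 (adjusted p = 1) in control mice.

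**Figure D2:**
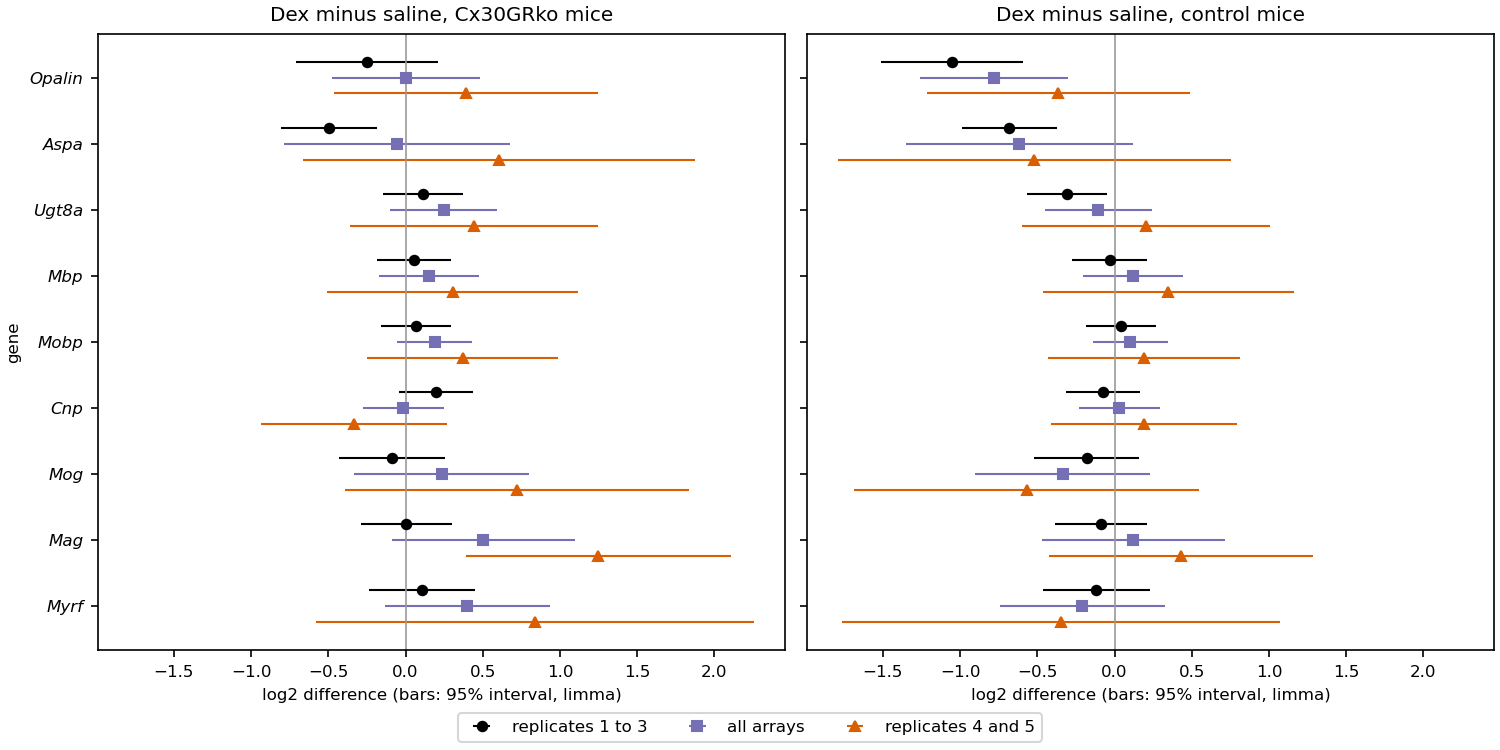
Log2 difference of Dex minus saline for each of the 9 genes with its 95% interval (limma), in Cx30GRko mice and in control mice, for replicates 1 to 3, all arrays, and replicates 4 and 5. In replicates 1 to 3 Aspa and Opalin lie farthest below 0 in control mice (-0.68 and -1.05), and in replicates 4 and 5 Mag lies farthest above 0 in Cx30GRko mice (1.25).

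Ugt8a, the ceramide galactosyltransferase that makes galactosylceramide, had 8.89, 8.87, 8.94, 9.75 and 8.81 in the Cx30GRko Dex arrays and 8.89, 8.77, 8.70, 8.81 and 8.85 in the Cx30GRko saline arrays. In control mice it had 8.81, 8.66, 8.78, 8.90 and 8.69 under Dex, against 8.88, 9.03, 9.27, 8.56 and 8.63 under saline. Array Cx30GRko Dex 4 lay 0.81 above the next highest of its group. The Dex difference was 0.25 ± 0.17 in Cx30GRko mice (SE; limma, adjusted p = 0.614) and -0.10 ± 0.17 in control mice (adjusted p = 0.987). The control Dex arrays of replicates 1 to 3 lay below the control saline arrays without overlap, as did 5.72% of all genes, a difference of -0.31 ± 0.12 (adjusted p = 0.566). The interaction in that set was 0.42 ± 0.17 (adjusted p = 0.916). The control Dex arrays of replicates 4 and 5 lay above the control saline arrays without overlap, as did 17.4% of all genes, a difference of 0.20 ± 0.34. Without Cx30GRko Dex 4 and 5 the Dex difference in Cx30GRko mice was 0.094 ± 0.15 (adjusted p = 1).

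Myrf, the membrane-anchored transcription factor that keeps myelin genes active, had 7.61, 7.23, 6.88, 8.32 and 7.14 in the Cx30GRko Dex arrays and 7.27, 7.01, 7.11, 7.78 and 6.00 in the Cx30GRko saline arrays. In control mice it had 7.21, 7.24, 7.14, 7.00 and 6.91 under Dex, against 7.35, 7.30, 7.29, 7.50 and 7.11 under saline. All 5 control Dex arrays lay below the control saline mean of their own set, by 0.075 to 0.39, while 4 of 5 Cx30GRko Dex arrays lay above theirs. The Dex difference of Myrf was 0.40 ± 0.26 in Cx30GRko mice (SE; limma, adjusted p = 0.593) and -0.21 ± 0.26 in control mice (adjusted p = 0.979). The interaction was 0.61 ± 0.36 (adjusted p = 0.853). Without Cx30GRko Dex 4 and 5 the difference in Cx30GRko mice was 0.20 ± 0.26 and the interaction 0.41 ± 0.35 (adjusted p = 1 for both).

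Read as a group, the 9 genes had a median Dex difference of 0.19 in Cx30GRko mice and -0.10 in control mice, beside medians of 0.024 and 0.012 over all genes. The median interaction was 0.38 beside 0.021 over all genes, with 8 of the 9 above 0. It became 0.081 without Cx30GRko Dex 4 and 5. Neither this nor the next median has a median over all genes beside it. The counts above 0 have no share of all genes beside them. In replicates 1 to 3 the median interaction of the 9 genes was 0.19, where all 9 lay above 0 and none was called. In that set 4 of the 9 genes (Aspa, Opalin, Myrf and Ugt8a) lay without overlap below saline in control mice given Dex, as did 5.72% of all genes, against 1 (Aspa) in Cx30GRko mice, where 5.34% of all genes did. The mean Dex differences of the other 7 genes, leaving out Aspa and Opalin, lay near 0 in those arrays, from -0.14 for Mog to 0.061 for Cnp.

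Between genotypes none of the 9 genes was called, and the differences of Mog, Mag, Aspa and Opalin under Dex were larger in replicates 4 and 5 than in replicates 1 to 3. Under saline the median difference of Cx30GRko minus control was -0.019, beside 0.0071 over all genes. No median over all genes, or share of them below 0, is given for replicates 1 to 3. In that set all 9 genes lay below 0, with a median of -0.18. Mag, Cnp, Opalin and Myrf did so without overlap, as did 4.91% of all genes. In replicates 4 and 5 the direction was opposite for all 9 genes but Myrf. Mag, Cnp, Opalin, Aspa and Ugt8a lay higher in Cx30GRko saline than in control saline arrays without overlap, as did 18.2% of all genes. The groups of Mbp, Mog and Mobp overlapped, with a difference of 0.012 for Mobp. The groups of Myrf overlapped there and did not turn round, with 7.78 and 6.00 in Cx30GRko saline arrays against 7.50 and 7.11 in control saline arrays. The most negative in replicates 1 to 3 was Opalin, at -0.51 ± 0.21 (SE; limma, adjusted p = 0.869), and in replicates 4 and 5 its difference was 0.24 ± 0.37 (adjusted p = 1).

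Under Dex the median difference of Cx30GRko minus control was 0.34, beside 0.013 over all genes. Mog (0.63 ± 0.27), Mag (0.69 ± 0.28), Aspa (0.85 ± 0.35) and Opalin (0.58 ± 0.23) were at an unadjusted p under 0.05, with adjusted p-values (limma) from 0.423 to 0.428. The fit without Cx30GRko Dex 4 and 5 had no term for the array set. Its differences were 0.25 for Mog, 0.18 for Mag, 0.29 for Aspa and 0.30 for Opalin. In replicates 1 to 3 they were -0.052, 0.025, -0.016 and 0.30. None of the 9 genes was at an unadjusted p under 0.05 in either of those fits, in which 2.31% and 4.78% of all genes were. In replicates 4 and 5 alone the differences of these genes were 1.65, 1.69, 2.16 and 0.99. There the Cx30GRko Dex group holds only Cx30GRko Dex 4 and 5, the arrays that stood apart.

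Markers of some other cells were high in the same arrays. The 9 genes' mean deviation from their own means was 0.93 in Cx30GRko Dex 4 and 0.16 in Cx30GRko Dex 5, and ran from -0.43 to 0.27 in the other 18 arrays. The mean deviation of 12 astrocyte markers was 0.59 and 0.46 in those 2 arrays, and that of 14 neuron markers was 0.63 and 0.38. In the other 18 arrays the astrocyte list ran from -0.40 to 0.12 and the neuron list from -0.45 to 0.14. Endothelial markers were at 0.58 and 0.14 in Cx30GRko Dex 4 and 5, and microglia markers at -0.054 and 0.087. Skeletal muscle markers were at -1.04, the lowest of the 20 arrays, and 0.0055. Meningeal fibroblast markers were at 0.90 and -0.10, and Schwann cell markers at 0.67 and -0.53, all within the range of the other 18 arrays. The part of these arrays' composition or RNA in the results was not tested.

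**Figure D3:**
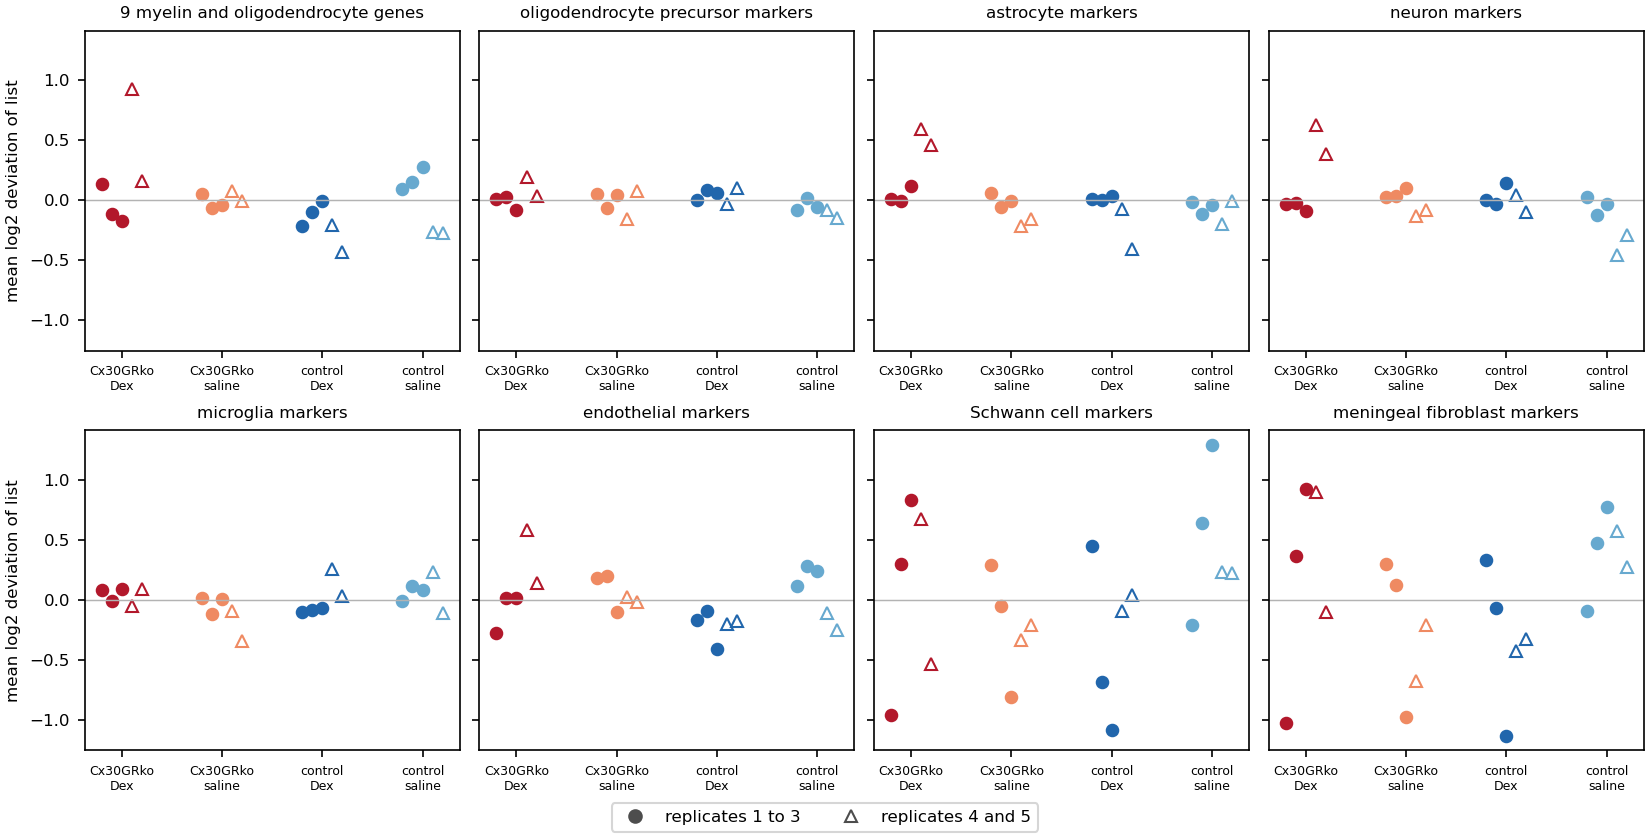
Mean log2 deviation of each gene list from its own mean over the 20 arrays, for 8 lists including the 9 genes, 1 point per array by group, with filled circles for replicates 1 to 3 and open triangles for replicates 4 and 5. Array 4 of the Cx30GRko Dex group is high at once for the 9 genes (0.93), astrocyte markers (0.59) and neuron markers (0.63).

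In lists of related oligodendrocyte genes, which hold some of the 9, no gene was called for the mean Dex effect over all arrays. Of 21 compact and non-compact myelin proteins, 11 myelin lipid genes, 11 lineage transcription factors, 18 other mature oligodendrocyte genes and 12 precursor markers, the medians were 0.11, 0.071, 0.013, 0.11 and 0.027, beside 0.018 over all genes. In replicates 1 to 3, 0.455% of all genes were called for the mean Dex effect. The list calls were 0 of 21, 1 of 11 (Aspa), 1 of 11, 1 of 18 and 0 of 12, all lower after Dex. Beside Aspa they were Nkx2-2, a homeodomain factor of the lineage, at -0.53 ± 0.09 (SE; limma, adjusted p = 0.0298), and Car2, the carbonic anhydrase of oligodendrocytes, at -0.48 ± 0.08 (adjusted p = 0.0234). Each was called in 3 of 12 fits that left out 1 of these arrays, and over all 20 arrays Nkx2-2 was at -0.24 ± 0.12 (adjusted p = 0.598) and Car2 at -0.18 ± 0.17 (adjusted p = 0.757). Adamts4, a protease of mature oligodendrocytes, was at -0.48 ± 0.11 over all arrays (adjusted p = 0.1) and at -0.54 ± 0.12 in replicates 1 to 3 (adjusted p = 0.1). Other mature oligodendrocyte genes went both ways over all arrays. Gstp1 was at 0.71 ± 0.235 (adjusted p = 0.434), Apod at 0.34 ± 0.12 (adjusted p = 0.478) and Gamt at -0.53 ± 0.20 (adjusted p = 0.517).

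The factors that govern the lineage differed in sign. Sox10, which activates myelin genes, averaged 6.55 ± 0.26 in Cx30GRko Dex arrays, 6.96 ± 0.35 in Cx30GRko saline arrays, 6.66 ± 0.41 in control Dex arrays and 6.92 ± 0.34 in control saline arrays (SD, n = 5 each). Its Dex arrays lay below the saline mean of their set in 5 of 5 Cx30GRko arrays and 4 of 5 control arrays, and the mean Dex difference was -0.34 ± 0.15 (SE; limma, adjusted p = 0.562). Olig2, which specifies the lineage, averaged 7.56 ± 0.41 in Cx30GRko Dex arrays, 7.14 ± 0.36 in Cx30GRko saline arrays, 7.64 ± 0.25 in control Dex arrays and 6.98 ± 0.42 in control saline arrays. Its mean Dex difference was 0.54 ± 0.16 (adjusted p = 0.326). Olig1 was at 0.67 ± 0.15 (adjusted p = 0.0979), and Nkx6-2, at -0.28 ± 0.15 over all arrays (adjusted p = 0.616), was at -0.60 ± 0.15 in replicates 1 to 3 (adjusted p = 0.183).

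**Figure D4:**
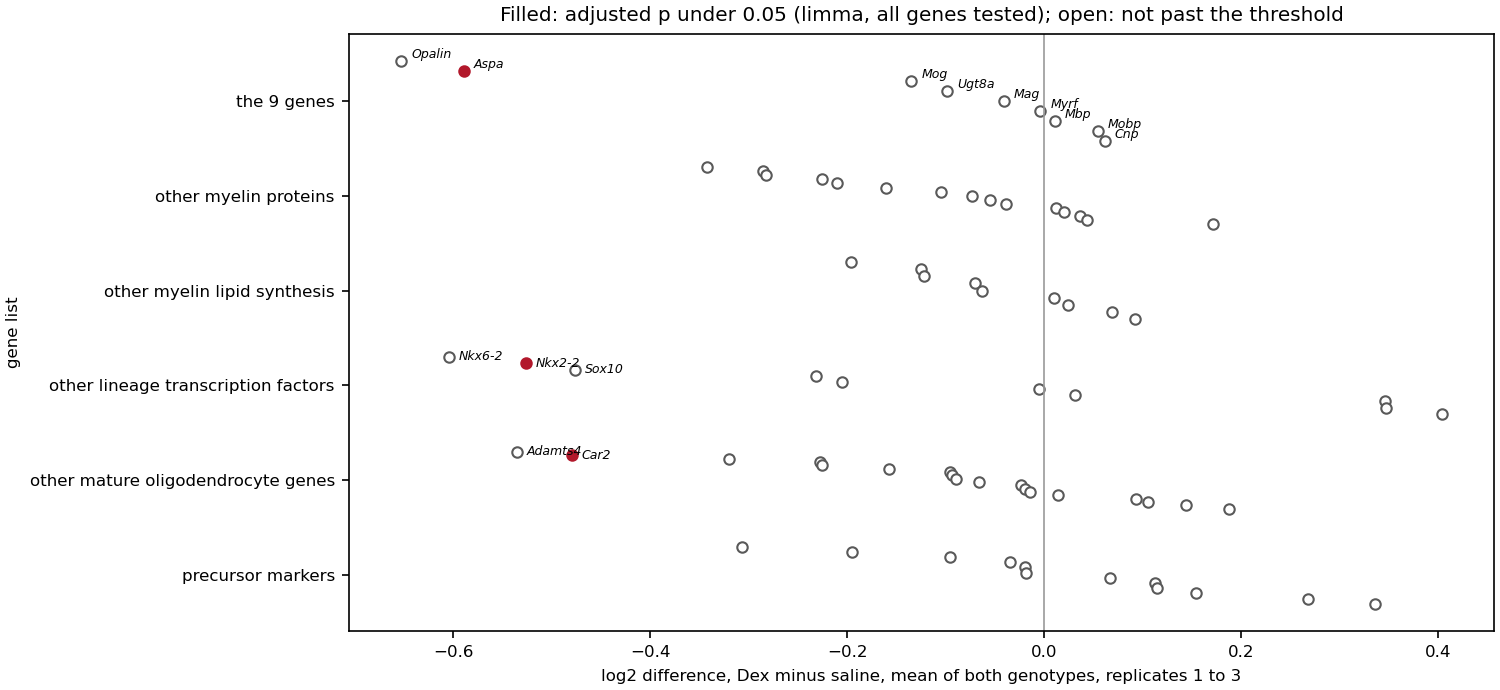
Mean Dex difference (log2, Dex minus saline over both genotypes) of the 9 genes and of every other measured gene in 5 oligodendrocyte lists, in replicates 1 to 3, 1 point per gene, filled where the adjusted p (limma) is under 0.05. Aspa (-0.59), Nkx2-2 (-0.53) and Car2 (-0.48) are the oligodendrocyte genes called.

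Some markers of 1 other cell type also moved in replicates 1 to 3. Of 8 endothelial markers, 3 were called lower after Dex, in a fit in which 0.455% of all genes were called. They were Tek at -0.96 ± 0.13 (SE; limma, adjusted p = 0.00752), Kdr at -0.95 ± 0.18 (adjusted p = 0.0427) and Slco1c1 at -0.58 ± 0.09 (adjusted p = 0.017). Over all 20 arrays none of these 3 was called, with Tek at -0.42 ± 0.18 (adjusted p = 0.541), Kdr at -0.48 ± 0.19 (adjusted p = 0.537) and Slco1c1 at -0.16 ± 0.20 (adjusted p = 0.839). The other endothelial markers were called in neither fit. Over all arrays Ly6c1 was at 0.38 ± 0.20 (adjusted p = 0.61) and Pecam1 at 0.079 ± 0.09 (adjusted p = 0.818). In replicates 1 to 3 Flt1 was at -0.23 ± 0.07 (adjusted p = 0.409). The list's mean deviation ran from -0.28 to 0.013 in Cx30GRko Dex arrays, -0.10 to 0.20 in Cx30GRko saline arrays, -0.41 to -0.090 in control Dex arrays and 0.12 to 0.29 in control saline arrays of that set. None of 12 astrocyte, 14 neuron, 9 microglia, 8 meningeal or 6 skeletal muscle markers was called there, nor the 1 of 6 erythrocyte markers measured. Of 6 measured Schwann cell and peripheral myelin markers none was called, with a median of -0.35, and their mean deviation ran from -1.08 to 1.29 over those 12 arrays, while that of the 8 meningeal markers ran from -1.13 to 0.92. The part of other cells in the values of Aspa and Opalin was not tested.

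The 9 genes followed each other unevenly across the arrays. Pearson's r of a gene with the mean of the other 8 over 20 arrays was highest for Aspa (0.865) and Ugt8a (0.845) and lowest for Cnp (-0.243), and without Cx30GRko Dex 4 and 5 it was 0.72 for Aspa, 0.643 for Ugt8a and 0.0091 for Cnp. Over the 12 arrays of replicates 1 to 3 it was 0.416 for Cnp and ran from 0.21 for Mobp to 0.781 for Opalin. With the means of each group in each set taken out, over 20 arrays it was 0.751 for Cnp, 0.849 for Aspa and lowest for Mbp, at 0.0943. The 10 other genes closest to the mean of the 9 over 20 arrays were Qk (r = 0.934, Spearman's rho = 0.87), Cyp51 (0.928, 0.941), Dock10, Iars, Paqr6, Snord58b, Cpd, Ubr1, Itm2a and Slc35a5, the last with r = 0.911. Cyp51, Dock10 and Qk were also among the closest 10 without Cx30GRko Dex 4 and 5, with r from 0.818 to 0.828. With those means taken out, Cyp51 was closest (r = 0.967), and Ermn, a cytoskeletal protein of the sheath on the myelin list, was the nearest myelin gene (r = 0.91). These values describe likeness over these arrays only.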

How the data were processed

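The deposited table, made by the authors, holds 41345 probe sets on the log2 scale in 20 arrays. The oligo package is named in the submitters' processing notes; its version, the background correction, the normalization and the build are not given in the sources used here. Values were used as deposited. Of the probe sets, 23521 carry 1 gene symbol, 1814 several and 16010 none in the platform annotation; for each of 22180 genes the probe set with the highest mean was kept, with no filter on dim probe sets. A mean per group was fitted with limma 3.58.1 in R 4.3.3 (16 residual and 5.66 prior degrees of freedom), with two-sided p-values adjusted by the Benjamini-Hochberg method within each comparison, and an adjusted p under 0.05 was called. Named genes were the 9, up to 4 per related list by smallest p, fixed extra genes (including Sox10, Olig2, Nr3c1 and Gjb6) and the 10 genes most alike. The 9 genes and the lists were chosen with earlier results of these data known. Related lists had 21 of 23, 11 of 11, 11 of 12, 18 of 22 and 12 of 12 genes measured. Precision is limited by the number of arrays; the p-values measure the spread between these arrays, which may be technical where nothing says that each is a separate mouse. The fit was tested on simulated data in which the noise of a gene had the same spread in all arrays. Those data held neither the 2 sets of arrays nor the 2 arrays that stood apart. Same-numbered arrays were not paired: correlations of their deviations ran from -0.109 to 0.109 over 30 pairs, of which 24 values are distinct because deviations within a set of 2 mirror each other.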

Additional observations from a re-analysis of the deposited data

Results flagged for a closer look

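In 3 of 44 groups of 5 arrays (11 genes, 4 groups) 1 array lay far from the other 4, by a rule that chance meets in about 1 in 20 groups, or 2.2 of 44. Aspa had 8.64 in Cx30GRko Dex 4, and its gap to the nearest array took up 0.745 of the group's range. Ugt8a had 9.75 in the same array, with a gap of 0.865 of the range. Both genes lay high there with astrocyte and neuron markers, whose part was not tested. Cnp had 8.10 in control saline 3, with a gap of 0.778 of the range.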

How the results depend on the processing

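Of 630 fitted differences of the 9 genes under settings other than the one reported, 3 became called, none of the called ones changed sign, and 85 that were not called in either fit changed sign. With array weights 1 gene (Opalin) was called for Dex in control mice and 1 (Opalin) for the mean Dex effect, and in replicates 1 to 3 1 gene (Aspa) was called for the mean Dex effect. The median over the 9 genes moved by more than the spread between arrays in 6 cases. In replicates 4 and 5 it was 0.19 for Dex in control mice, 0.75 for the interaction and 0.77 for genotype under Dex. It was 0.081 for the interaction without Cx30GRko Dex 4 and 5 and 0.062 with the array set as a block too, and 0.025 for genotype under Dex in replicates 1 to 3. With the replicate number as a block (replicate block) no gene of the 9 was called in any comparison, and over all genes the calls for the mean Dex effect were 15, against 33 without it. The block of array set gave 24. The cause of these changes was not tested. The block fit without Cx30GRko Dex 4 and 5 and the fits leaving out arrays within replicates 1 to 3 were chosen after seeing the data. Log2 differences that changed sign were as follows. With array weights the difference for Dex in Cx30GRko mice was 0.12 (Cnp), -0.0072 (Mog) and -0.27 (Opalin) and for Dex in control mice was -0.016 (Cnp) and -0.021 (Mag). Values for the mean Dex effect were -0.047 (Ugt8a) and for the interaction were 0.14 (Cnp). Those for genotype under saline were -0.031 (Mbp) and -0.075 (Mog). With cyclic loess the difference for Dex in Cx30GRko mice was -0.018 (Mbp), -0.012 (Mobp) and -0.044 (Opalin) and for Dex in control mice was -0.015 (Cnp). Values for the mean Dex effect were -0.097 (Cnp) and -0.067 (Ugt8a) and for the interaction were -0.088 (Mbp) and -0.053 (Mobp). Those for genotype under Dex were -0.079 (Mbp) and -0.14 (Mobp). With a further quantile normalization the difference for Dex in Cx30GRko mice was -0.054 (Mbp), -0.031 (Mobp) and -0.059 (Opalin) and for the mean Dex effect was -0.085 (Cnp), -0.012 (Myrf) and -0.057 (Ugt8a). Values for the interaction were -0.14 (Mbp) and -0.082 (Mobp) and for genotype under Dex were -0.12 (Mbp) and -0.15 (Mobp). In replicates 1 to 3 the difference for Dex in Cx30GRko mice was 0.20 (Cnp), -0.089 (Mog) and -0.25 (Opalin) and for Dex in control mice was -0.076 (Cnp), -0.087 (Mag) and -0.033 (Mbp). Values for the mean Dex effect were -0.041 (Mag), -0.0041 (Myrf) and -0.099 (Ugt8a) and for the interaction were 0.27 (Cnp). Those for genotype under saline were -0.20 (Aspa), -0.068 (Mag), -0.081 (Mbp) and -0.14 (Mog) and for genotype under Dex were -0.015 (Aspa), 0.070 (Cnp), -0.015 (Mobp) and -0.052 (Mog). In replicates 4 and 5 the difference for Dex in Cx30GRko mice was 0.60 (Aspa) and for Dex in control mice was 0.20 (Ugt8a). Values for the mean Dex effect were 0.043 (Aspa), -0.071 (Cnp), 0.076 (Mog) and 0.013 (Opalin) and for the interaction were -0.043 (Mbp). Those for genotype under saline were 0.094 (Cnp), 0.012 (Mobp), 0.24 (Opalin) and 0.24 (Ugt8a). Without Cx30GRko Dex 4 and 5 the difference for Dex in Cx30GRko mice was 0.11 (Cnp), -0.0064 (Mag), -0.15 (Mog) and -0.27 (Opalin) and for the mean Dex effect was -0.0023 (Myrf) and -0.0054 (Ugt8a). Values for the interaction were 0.081 (Cnp), -0.13 (Mag), -0.078 (Mbp) and -0.00040 (Mobp) and for genotype under Dex were -0.0075 (Mbp) and -0.019 (Mobp). Without those arrays and with the array set as a block the difference for Dex in Cx30GRko mice was 0.15 (Cnp), -0.18 (Mag), -0.27 (Mog) and -0.36 (Opalin) and for the mean Dex effect was -0.028 (Mag), -0.035 (Myrf) and -0.031 (Ugt8a). Values for the interaction were -0.19 (Aspa), 0.12 (Cnp), -0.30 (Mag), -0.12 (Mbp) and -0.029 (Mobp) and for genotype under Dex were 0.038 (Cnp), -0.045 (Mbp) and -0.048 (Mobp). Leaving out 1 of the 20 arrays in turn called none of the 9 genes, and 42 of 1080 differences changed sign. For Dex in Cx30GRko mice the range was -0.49 to 0.11 (Aspa), -0.070 to 0.074 (Cnp), -0.060 to 0.37 (Mog) and -0.21 to 0.14 (Opalin). For Dex in control mice the range was -0.0090 to 0.080 (Cnp), -0.081 to 0.24 (Mag) and -0.021 to 0.20 (Mbp). For the mean Dex effect the range was -0.019 to 0.053 (Cnp), -0.20 to 0.051 (Mog), -0.034 to 0.19 (Myrf) and -0.016 to 0.12 (Ugt8a). For the interaction the range was -0.10 to 0.043 (Cnp) and -0.043 to 0.18 (Mbp). For genotype under saline the range was -0.070 to 0.14 (Mbp), -0.061 to 0.0068 (Mobp), -0.059 to 0.13 (Mog) and -0.15 to 0.032 (Ugt8a).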

Other observations

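Gjb6 encodes connexin 30, made by the cells in which the receptor gene was meant to be removed. Its level averaged 6.47 ± 0.13 in Cx30GRko Dex arrays, 6.38 ± 0.24 in Cx30GRko saline arrays, 6.46 ± 0.48 in control Dex arrays and 6.25 ± 0.13 in control saline arrays (SD, n = 5 each). The difference of Cx30GRko minus control was 0.14 ± 0.18 under saline (SE; limma, adjusted p = 0.94). Among myelin genes outside the 9, Hapln2, a link protein at nodes of Ranvier, was at 0.44 ± 0.15 for the mean Dex effect over all arrays (adjusted p = 0.435). Mal, a proteolipid of compact myelin, was at 0.40 ± 0.15 (adjusted p = 0.528). Within replicates 1 to 3 the glial connexin gene Gjc3 was at -0.29 ± 0.07 (adjusted p = 0.208) and Tmem88b at -0.34 ± 0.09 (adjusted p = 0.211), with none of these 4 genes called.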
